A study of Schizosaccharomyces pombe with 13 samples.

Results

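The comparison set haploid fission yeast, Schizosaccharomyces pombe, lacking pht1 against wild type, using 7 of the 13 RNA sequencing libraries of the study. pht1 encodes H2A.Z, a variant of histone H2A. The 4 wild-type libraries and the 3 libraries of the deletion strain were chosen by their labels, and the 6 other libraries carry a deletion of xap5, alone or with pht1, and were not used here. Both strains have the background ED668 and share the auxotrophic alleles ade6-M216, ura4-D18 and leu1-32. They also differ in labelled mating type, h+ in wild type and h- in the deletion, which replaced SPBC11B10.10c, the systematic name of pht1, with NatMx4, a drug-resistance cassette. Cells were pre-grown overnight in YES medium at 30 °C and taken in exponential growth at 37 °C in EMM50 medium, so every value compares the strains at the higher temperature alone. The labels' growth protocol states 3 replicates per genotype although 4 libraries are labelled wild type, and how many of them entered the deposited tests is not known here. Nothing in the labels says whether replicates came from separate isolates of the deletion. The p-values may therefore measure only the spread between cultures or preparations of a single strain.

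The authors deposited results, not values per library. Their tables give, for each feature, the log2 fold in the pht1 deletion relative to wild type, with its p-value before and after adjustment. No level, standard deviation or value of a single library could be shown here, and every fold and p below is the authors' deposited value. A feature is called higher or lower where the deposited adjusted p is under 0.05. Per the labels, libraries averaged 11800000 reads; the depth of each is unknown here. The 4 tables hold 5747 sense entries, 1561 antisense entries, 117 long terminal repeats (LTRs) and 6121 regions of an intergenic table.

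H2A.Z takes the place of H2A in a small share of nucleosomes, placed there by the SWR1 remodelling complex, most often in the nucleosome just downstream of a transcription start. In fission yeast it is also known for limiting antisense RNA together with heterochromatin and RNA interference factors, and for a role in silencing and in chromosome segregation. Genes near chromosome ends and LTR retrotransposons are kept low in growing cells by several of the same chromatin pathways.

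The transcripts behind the folds can be of several kinds, and 3 sets of sequence are shown here because the results below return to them. They were read from the RefSeq assembly ASM294v3, whose LTR positions equal those of 114 of the 117 deposited LTRs and whose introns equal 3316 regions of the intergenic table. The first set holds 8 introns listed as intergenic regions, 3 called lower and the 5 highest called ones of at most 100 bases. They are written on the strand of their gene, with the first and last 2 bases in capitals.
cdc7 intron, chrII:3225985-3226031, minus strand: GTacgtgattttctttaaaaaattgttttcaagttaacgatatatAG
hem12 intron, chrIII:1167324-1167372, plus strand: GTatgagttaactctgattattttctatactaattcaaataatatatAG
rar1 intron, chrII:1409560-1409620, minus strand: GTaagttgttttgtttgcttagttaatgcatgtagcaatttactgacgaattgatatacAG
SPCC70.04c intron, chrIII:2353914-2353973, minus strand: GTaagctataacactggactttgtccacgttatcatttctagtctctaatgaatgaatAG
SPCC70.04c intron, chrIII:2353702-2353745, minus strand: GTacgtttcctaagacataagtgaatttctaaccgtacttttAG
SPAC630.06c intron, chrI:356593-356634, minus strand: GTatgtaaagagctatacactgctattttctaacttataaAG
whi5 intron, chrII:253232-253309, plus strand: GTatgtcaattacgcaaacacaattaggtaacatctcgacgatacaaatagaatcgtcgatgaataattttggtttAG
smg1 intron, chrII:3421370-3421416, plus strand: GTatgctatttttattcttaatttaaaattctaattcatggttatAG
All 28 called introns begin with GT and end with AG, as do 3301 of the 3316. The second set shows 3 LTRs: the first 300 bases of a 349-base Tf2 LTR that occurs in 11 identical copies, with its first 2 bases in capitals, and the 2 shortest elements called higher, LTR 1301 and LTR 20.
identical Tf2 LTRs, LTR 3173, chrI:3361197-3361496, minus strand: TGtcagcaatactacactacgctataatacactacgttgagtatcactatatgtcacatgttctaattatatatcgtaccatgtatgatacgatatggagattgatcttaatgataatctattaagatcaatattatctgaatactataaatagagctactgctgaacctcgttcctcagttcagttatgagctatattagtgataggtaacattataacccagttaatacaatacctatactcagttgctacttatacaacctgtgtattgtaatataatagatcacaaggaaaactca
LTR 1301, chrIII:1466447-1466627, plus strand: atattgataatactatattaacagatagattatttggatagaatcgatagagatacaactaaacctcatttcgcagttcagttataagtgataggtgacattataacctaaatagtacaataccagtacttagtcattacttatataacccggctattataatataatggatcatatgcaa
LTR 20, chrI:32863-33057, minus strand: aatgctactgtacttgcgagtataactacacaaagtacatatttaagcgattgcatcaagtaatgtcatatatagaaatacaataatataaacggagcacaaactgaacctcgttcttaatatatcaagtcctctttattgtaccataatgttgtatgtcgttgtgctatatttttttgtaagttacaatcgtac
The third set shows upstream stretches of called stress and chaperone genes, each within the 250 bases before the annotated gene start, with a motif in capitals. The motif of the 5 stress genes is TGACGT or its reverse complement, and that of the 5 chaperone genes is GAANNTTC, which reads the same on both strands.
ntp1, chrII:206472-206557, plus strand: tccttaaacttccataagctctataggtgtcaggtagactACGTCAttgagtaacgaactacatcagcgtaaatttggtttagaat
ctt1, chrIII:58847-58932, minus strand: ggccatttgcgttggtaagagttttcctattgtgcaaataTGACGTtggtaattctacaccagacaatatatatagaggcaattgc
ish1, chrII:2518743-2518828, minus strand: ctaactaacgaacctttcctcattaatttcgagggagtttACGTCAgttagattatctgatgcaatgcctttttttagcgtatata
rds1, chrI:1667595-1667680, plus strand: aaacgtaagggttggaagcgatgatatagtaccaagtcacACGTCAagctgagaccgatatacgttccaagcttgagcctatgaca
gst3, chrI:3116899-3116984, minus strand: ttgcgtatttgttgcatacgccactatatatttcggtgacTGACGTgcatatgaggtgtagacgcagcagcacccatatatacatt
ssa2, chrIII:2056944-2057031, plus strand: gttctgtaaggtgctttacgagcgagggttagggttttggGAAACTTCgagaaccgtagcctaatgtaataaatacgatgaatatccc
psi1, chrIII:2195550-2195637, minus strand: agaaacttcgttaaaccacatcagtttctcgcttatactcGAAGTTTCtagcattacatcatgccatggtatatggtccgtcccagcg
hsp16, chrII:2661038-2661125, minus strand: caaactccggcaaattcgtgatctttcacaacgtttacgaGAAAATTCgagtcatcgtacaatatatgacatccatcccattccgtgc
ssa1, chrI:2297975-2298062, minus strand: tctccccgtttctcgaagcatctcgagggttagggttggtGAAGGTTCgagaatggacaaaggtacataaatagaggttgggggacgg
aha1, chrII:2148935-2149022, plus strand: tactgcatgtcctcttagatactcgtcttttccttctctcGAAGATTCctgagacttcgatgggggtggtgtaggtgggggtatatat

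The deleted gene itself was the check of the labels. pht1 lies on chromosome II at 1502203 to 1503444 on the minus strand. Its sense RNA had a deposited log2 fold of -2.13 (adjusted p = 4.64e-06), which is 4.38-fold lower in the libraries labelled as the deletion and the fourth-lowest called fold of the sense table. The antisense entry of pht1 went the other way, with a deposited log2 fold of 2.00 (adjusted p = 1.34e-08). Of the genes next to it, cdc2, which encodes the cyclin-dependent kinase, had a sense log2 fold of 0.10 that was not called, while its antisense entry was called at 1.64 (adjusted p = 0.0192). The antisense RNA SPNCRNA.1438, opposite cdc2 and wwm1, was also called higher at 2.23. shy1, needed for cytochrome oxidase assembly, was called higher at 0.37, and naa25, an auxiliary subunit of an acetyltransferase, was not called at -0.18. The deletion cassette stands at this locus in place of pht1. Its part in the antisense entry of pht1 and in the neighbouring values was not tested, nor was the source of the sense reads left at pht1. The pht1 entries are kept in the counts of calls below.

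Genes tied to mating type were mostly not called. Of 10 measured genes particular to M cells or the M-factor pathway, 1 was called, mam4 at -0.48, which encodes a methyltransferase that modifies M-factor. mat1-Mc and mat3-Mc, copies of the M mating-type gene, were each listed at 0.16, and the M-factor genes mfm1, mfm2 and mfm3 at 0.78, -0.35 and 0.27, none of them called. The 5 measured P genes map1, map2, map3, map4 and sxa1 lay between -0.20 and 0.43, also uncalled. The list medians were 0.16 for M genes and 0.34 for P genes, so these genes did not show the labelled difference in mating type. Of the shared auxotrophic loci, ade6 was called lower at -0.35 and leu1 was not called at -0.35.

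Across the sense table, 775 entries were called higher, 13.5% of 5747, and 637 lower, 11.1%. The sides differed in size. The called higher entries had a median deposited log2 fold of 0.73 against -0.43 for the lower ones, and at least 2-fold changes numbered 236 higher and 30 lower. Over all sense entries the median was -0.02, so the higher and lower calls stood on either side of a centre close to 0. Protein-coding entries were balanced, with 602 higher and 612 lower of 5040 and a median of -0.04. Long noncoding RNAs were not, with 147 higher and 12 lower of 564 and a median of 0.41. Pseudogenes had 9 higher of 27 and a median of 0.40. Entries described as dubious, a class looked at after values were seen, had 22 higher and 3 lower of 51, with a median of 0.62.

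**Figure D1:**
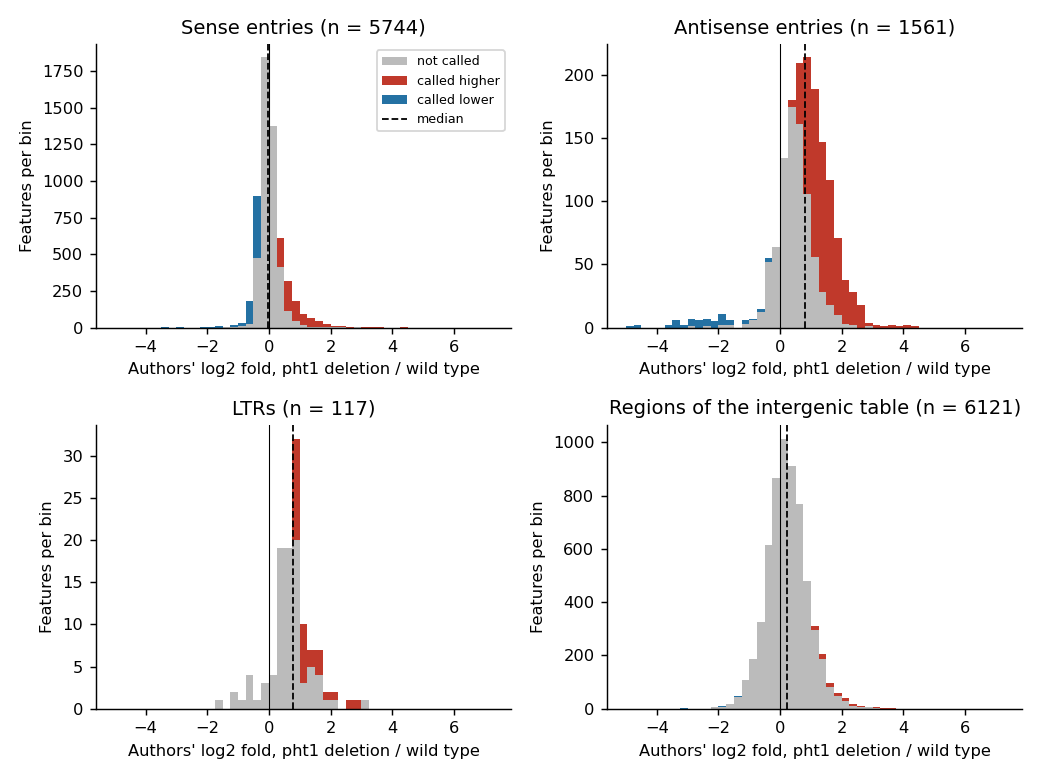
Histograms of the authors' log2 fold (x axis, bins of 0.25) in the 4 deposited tables, with features per bin on the y axis. Red marks features called higher in the pht1 deletion, blue those called lower and grey the rest, and the dashed line is the median; the 3 sense entries beyond 20 in either direction are not drawn. The median stands at -0.02 for sense entries, 0.82 for antisense entries, 0.79 for LTRs and 0.22 for intergenic regions.

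Many genes that cells turn on under environmental stress were higher. Of 46 stress response genes, 25 were called higher, 54.3% against 13.5% of all sense entries, and 1 lower. The list median was 0.46 against -0.02 over all sense entries. The highest were ddr48 at 2.46, the metallothionein gene zym1 at 2.38, rds1 at 2.27, the dihydroxyacetone kinase gene dak2 at 2.16 and the small heat shock gene hsp16 at 1.80. Called members that act in oxidative and nitrosative defence had deposited log2 folds of 1.52 for yhb1 (nitric oxide dioxygenase), 1.32 for gst2 (glutathione S-transferase), 1.02 for gpx1 (glutathione peroxidase) and 1.00 for ctt1 (catalase). The kinase gene sty1 at 0.17 and the transcription factor gene pap1 at 0.22, upstream regulators of such genes, were not called. hmt2, which encodes a sulfide oxidoreductase, was the member called lower, by 1.99-fold.

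A minority of chaperone genes were higher. Of 27 measured, 9 were called higher, 33.3% against 13.5% of all sense entries, with a median of 0.22. Besides hsp16 they included the Hsp70 gene ssa1 at 1.18, hsp104 at 0.81, ssa2 at 0.67 and hsp78 at 0.47, and the gene of their regulator, hsf1, at 0.31. hsp90 at 0.28 and its partner gene sti1 at 0.27 were not called. Both strains grew at the same raised temperature, so these folds compare strains and not temperatures.

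Sequence upstream of the called genes was searched for the motifs printed above, on both strands of the 250 bases before each annotated start. TGACGT, the core of the site of ATF-type factors, was found in 5 of the 25 stress genes called higher (ntp1, ctt1, ish1, rds1 and gst3), in 2 of 20 that were not called, and in 277 of 5039 protein-coding genes, 5.50%. GAANNTTC, part of the heat shock element, was found at 5 of 9 called chaperone genes, 8 of 18 uncalled ones and 475 of all, 9.43%. ACGCGT, the MBF box, stood before 2 of 5 called MBF-driven genes and 7 of 21 uncalled ones, against 133 of all. GTAAACA, a forkhead site, stood before 7 of 23 called mug and meu genes and 35 of 73 uncalled ones, against 742 of all. A match here is only a run of letters, and no binding was measured.

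Some genes for sugar use other than glucose were also higher. Of 28 hexose and glucose-repressed genes, 10 were called higher, 35.7%, and 3 lower, 10.7%, against 13.5% and 11.1% of all sense entries. Among the higher were mel1, a melibiase gene, at 1.62, the hexose transporter gene ght3 at 1.53, the glycerol dehydrogenase gene gld1 at 1.49, the invertase gene inv1 at 1.19 and fbp1, which encodes the gluconeogenic fructose bisphosphatase, at 1.05. scr1, the gene of a glucose repressor, was also called higher, at 1.36. The glycolysis list, which also holds pyruvate decarboxylase genes and the gluconeogenic fbp1, went both ways. Of its 17 members, 5 were called lower, 29.4%, such as pgi1 at -0.66, pdc101 at -0.63 and pfk1 at -0.52. Those called higher were 3, 17.6%: eno102 at 1.93, pdc201 at 1.49 and fbp1, already counted above. eno102 and pdc201 are further enolase and pyruvate decarboxylase genes, and eno101 was not called at -0.28. Respiratory chain and ATP synthase genes had 8 called higher of 55, led by cox8 at 1.11, which is 14.5% against 13.5% of all sense entries, with a median of 0.05.

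A minority of sexual differentiation genes were called higher. Of 29 pheromone signalling and differentiation genes, 11 were called higher, 37.9% against 13.5% of all sense entries, with a median of 0.24. They included ste11, the master transcription factor of the programme, at 0.79, the kinase gene byr2 at 0.80, mei4 at 0.87, ste7 at 0.97 and mei3, which encodes the inducer of meiosis, at 1.86. Of 22 meiotic transcripts that Mmi1 marks for removal in growing cells, 7 were called higher, 31.8%, with a median of 0.35. Among them were mei4, mug4 at 1.10 and rec8 at 0.64. mmi1 itself was not called at -0.19. Of 108 genes named mug or meu for their expression in meiosis, 24 were called higher, 22.2%, and 9 lower, 8.33%. The highest were mug14 at 2.04 and meu27 at 1.91. On the lower side, meu26 at -3.35 had the lowest called fold of the whole sense table (adjusted p = 0.0154). Of 26 MBF-driven genes 5 were called higher, 19.2%, led by cdt2 at 1.03, and of 35 cell separation and cell wall genes 5, 14.3%, led by bgl2 at 1.07, against 13.5% of all sense entries.

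Most thiamine genes were lower. Of 9 measured thiamine genes, 8 were called lower, 88.9% against 11.1% of all sense entries, with a list median of -1.20. The pyridoxine importer gene bsu1 fell to a deposited log2 fold of -2.80 (adjusted p = 2.93e-33), the thiazole enzyme gene thi2 to -2.21 (adjusted p = 8.68e-17), nmt1, whose promoter is the common thiamine-repressible one, to -1.91 (adjusted p = 5.06e-06), and the thiamine-repressible phosphatase gene pho4 to -1.74. thi4, an enzyme gene of the pathway, was at -1.20, the transporter gene thi9 at -1.15, thi5, a transcription factor gene, at -0.54 and the kinase gene tnr3 at -0.46. thi1, the other regulator, was not called at -0.29. Widening the group after values were seen to every entry whose description names thiamine or vitamin B6 gave 12 lower and 2 higher of 22, adding the predicted thiamine pyrophosphate carrier SPBC1604.04 at -1.52, thi201 at -1.56, SPBC530.07c at -1.17 and snz1 at -0.70.

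Most genes of the sulfur list were lower. This list was assembled after values were seen and its count is a description. Of 28 genes of sulfur uptake and assimilation, 19 were called lower, 67.9% against 11.1% of all sense entries, with a median of -0.57. The reductive route was lower at several steps: the sulfate transporter genes sul1 and sul2 were at -0.59 and -0.70, sua1 (sulfate adenylyltransferase) at -0.83, met14 (adenylyl-sulfate kinase) at -0.39, sir1 (sulfite reductase) at -0.58 and met17 (homocysteine synthase) at -1.02. Genes for other sulfur sources were lower still. SPBC460.04c, a predicted sulfonate dioxygenase, was at -1.81 and SPBC460.05, a predicted transporter with the neighbouring identifier, at -1.71. SPBPB10D8.01, a predicted cysteine transporter, was at -1.50 and SPBPB10D8.02c, a predicted arylsulfatase, at -1.30. met16 at -0.18 and met6 at -0.18 were among the 9 that were not called.

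Some lists of genes that feed and run translation held many small decreases. Of 21 cytoplasmic aminoacyl-tRNA ligase genes, picked by description after values were seen, 16 were called lower, 76.2%, between -0.36 and -0.64. The list median was -0.42. Of 14 mitochondrial ligase genes picked the same way, 1 was called lower and 1 higher, with a median of -0.14. Of 41 translation factor genes 12 were called lower, 29.3%, with tif5 at -0.67, tef103 at -0.64 and gcn1 at -0.47. Of 145 cytosolic ribosomal protein genes 21 were called lower, 14.5% against 11.1% of all sense entries, with a median of -0.12. Ribosome biogenesis genes had 5 higher and 2 lower of 72 and a median of 0.04, and of 35 proteasome genes 2 were called, both lower.

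Part of the amino acid and purine synthesis genes were lower too. Of 52 amino acid synthesis genes, again a list made after values were seen, 21 were called lower, 40.4% against 11.1% of all sense entries. The list median was -0.30. The calls were led by ser3 of serine synthesis at -0.90, the glutamate synthase gene glt1 at -0.74 and the glutamine synthetase gene gln1 at -0.70. Of the 10 purine genes ade1 to ade10, likewise listed after values were seen, 8 were called lower, 80%, with ade10 the lowest at -0.76. Phosphate genes split: of 13, 5 were lower, 38.5%, and 1 higher, 7.69%. The acid phosphatase gene pho1 was at -1.02, the transporter gene pho84 at -0.39 and, on the higher side, the glycerophosphodiester transporter gene tgp1 at 1.04.

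**Figure D2:**
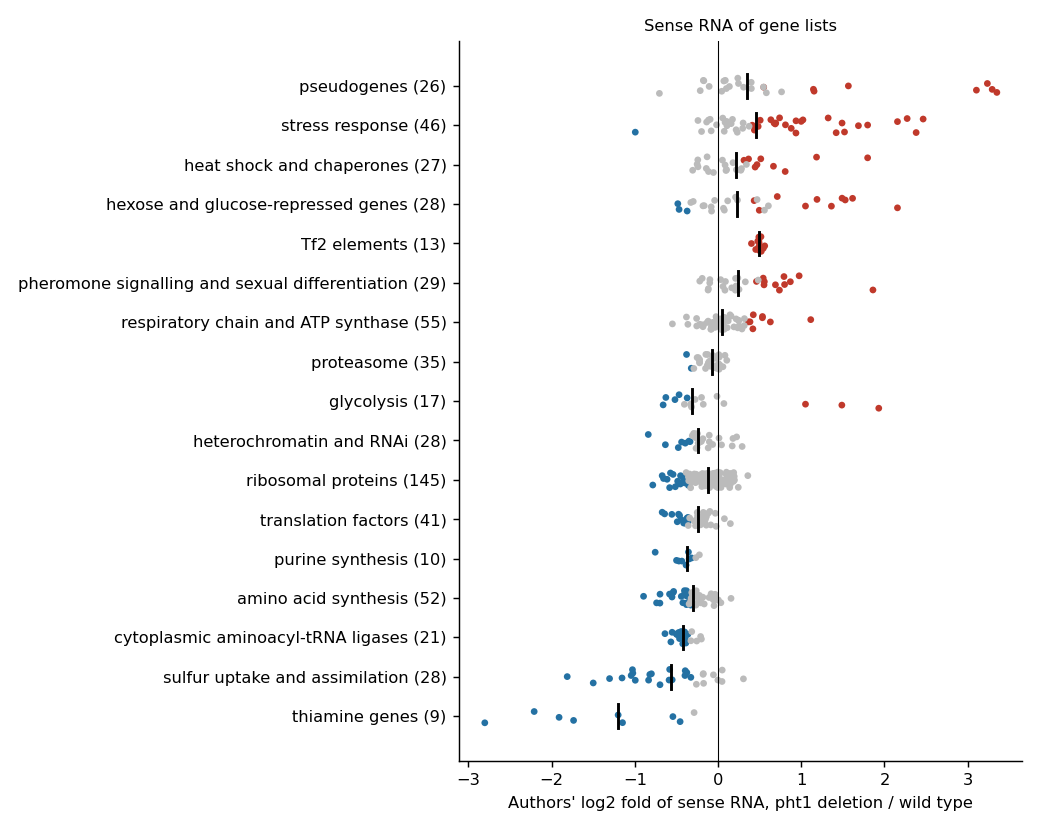
Authors' log2 fold of sense RNA (x axis) for every measured member of 17 gene lists, each point a gene, with list sizes in brackets on the y axis and a bar at the list median. Red points were called higher in the pht1 deletion, blue lower and grey neither. Thiamine genes have their median at -1.20 and sulfur genes at -0.57, and stress response genes at 0.46.

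Several chromatin genes were lower, by small amounts. Against 11.1% called lower among all sense entries, the shares were 25% for heterochromatin and RNA interference genes, 22.2% for factors that limit cryptic transcription and 12.9% for RNA surveillance genes. Of 28 heterochromatin and RNA interference genes 7 were called lower, with a median of -0.24. Among them were rdp1, the RNA-directed RNA polymerase gene, at -0.84 (adjusted p = 8.63e-10), the H3K9 methyltransferase gene clr4 at -0.48, dcr1 (Dicer) at -0.44, the deacetylase gene clr3 at -0.39, hrr1 at -0.35 and ers1 at -0.34. Of 27 factors that limit cryptic transcription 6 were called lower, with the deacetylase gene clr6 at -0.53, tpr1 of the Paf1 complex at -0.51, and the elongation factor genes spt5 at -0.42 and spt6 at -0.39. Of 31 RNA surveillance and exosome genes 4 were lower and 1 higher. In the SWR1 complex, which deposits H2A.Z, 4 of 14 were lower, alp5 at -0.65, bdf1 at -0.54, swc5 at -0.54 and yaf9 at -0.31, and swc2 was higher at 0.50, while swr1, the ATPase gene, was not called at -0.12. Among the 11 histone genes, hta1, a gene of canonical H2A, was lower at -0.60, the H4 and H3 genes hhf3 and hht3 were higher at 0.39 each, and hta2, the other H2A gene, was not called at 0.22. The centromeric histone gene cnp1 was not called at 0.25.

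Calls were spread unevenly along the chromosomes. Within 100 kb of the ends of chromosomes I and II, 47 of 133 sense entries were called higher, 35.3%, and 12 lower, 9.02%, with a median of 0.35. Beyond 200 kb the shares were 12.3% higher and 11.2% lower of 4286, with a median of -0.03. The nearest 25 kb held 8 higher of 26, the next bin to 50 kb 12 of 33, the bin to 100 kb 27 of 74 and the bin to 200 kb 36 of 181. All 4 ends of these chromosomes took part: 14 of 37 entries were higher at the left end of I, 13 of 32 at its right end, 11 of 35 at the left end of II and 9 of 29 at its right end. At the ends of chromosome III, 11 of 40 were higher on the left and 8 of 44 on the right. Distance from the centromeres was not used here.

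Of the 15 highest called sense folds, 9 lay within 60 kb of an end of chromosome I or II. SPAC212.10 and SPAC212.09C, pseudogenes related to malic acid transport and malic enzyme genes at the left end of chromosome I, were at 3.29 and 3.24. SPBCPT2R1.10 and SPBCPT2R1.07C, at the right end of II, were at 3.35 and 3.10. From 87.2 to 96.4% of the 100-base windows of these 4 occur elsewhere in the genome, so their reads could be shared between copies, and they are not separate observations. Single-copy genes near an end were also higher: SPAC186.02c, a predicted hydroxyacid dehydrogenase, was at 3.29, SPAC186.08c, a predicted lactate dehydrogenase, at 3.19 and SPAC869.01, a predicted amidase, at 2.47, all near the right end of chromosome I. Away from the ends, high called folds included the noncoding RNA SPNCRNA.1054 at 4.30 (adjusted p = 0.00168) and the orphan SPCC191.04c at 3.58 (adjusted p = 4.38e-11). The pseudogene SPBPB21E7.06, 68.4 kb from the left end of II, has a deposited log2 fold beyond 20 in favour of the deletion, of the size that edgeR gives where a group has no reads, and no fold is given for it. The lowest called fold near an end was SPBPB2B2.08 at -1.68.

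**Figure D3:**
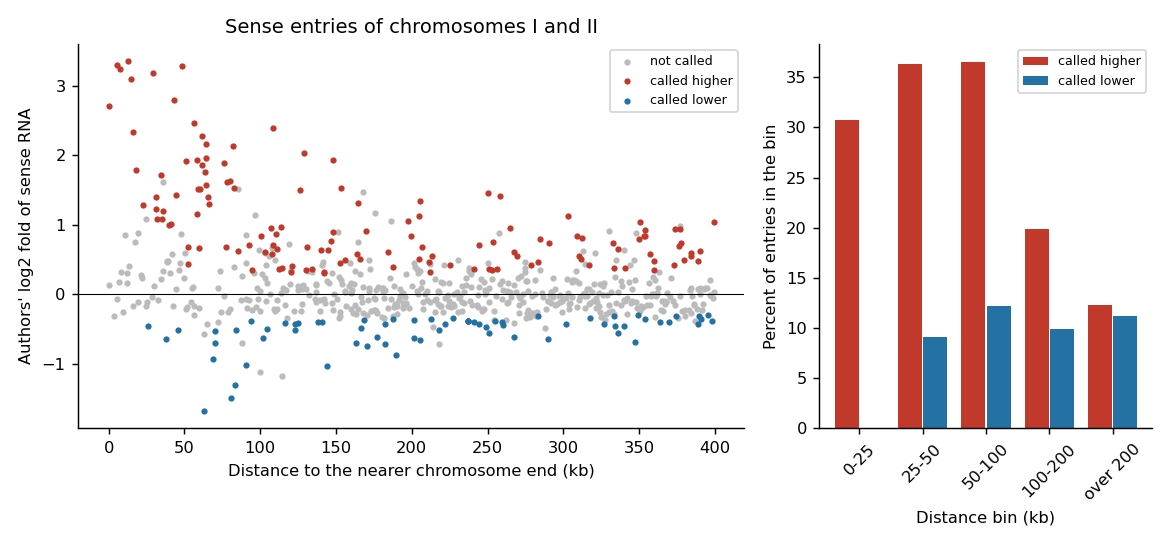
Left, authors' log2 fold of sense entries on chromosomes I and II (y axis) against the distance to the nearer chromosome end in kb (x axis, to 400 kb), each point an entry, red called higher, blue lower and grey neither, with the entry beyond 20 not drawn. Right, bars give the percent of entries called higher (red) and lower (blue) per distance bin. From 30.8 to 36.5% of entries were called higher in the 3 bins nearest the ends and 12.3% beyond 200 kb.

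Antisense RNA was the most one-sided readout of annotated genes. Of 1561 antisense entries, 665 were called higher, 42.6%, and 59 lower, 3.78%, and the median deposited log2 fold was 0.82. The table header says that only entries with p under 0.01 in some comparison of the study are listed, so these shares are of loci already chosen for a change in one of the mutants, and entries with smaller changes are not in the count. At least 2-fold changes numbered 503 higher and 52 lower. Annotated antisense RNAs gave 199 higher and 6 lower of 414, with a median of 0.67, and antisense signal at genes gave 436 higher and 50 lower of 1052, with a median of 0.93.

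The genes with the highest antisense folds came from unrelated functions. ost3, an oligosaccharyltransferase subunit gene, was at 4.32 (adjusted p = 4.18e-04), pfl8, a cell surface glycoprotein gene, and SPBC1652.02, a predicted amino acid transporter, at 4.13 each, SPAC212.06c, a truncated helicase gene near the left end of chromosome I, at 3.65, pdc102 at 3.56 and the vacuolar ATPase subunit gene vma7 at 3.34. The deposited antisense folds of pfl8 and SPBC1652.02 are identical, at 4.13019, and without read counts it cannot be told whether they rest on few reads. The sense RNA of SPAC212.06c was also called higher, at 1.79, and 66.5% of its 100-base windows occur elsewhere in the genome. The sense RNAs of ost3, pfl8, SPBC1652.02, pdc102 and vma7 were listed at 0.08, 0.05, -0.26, 1.08 and -0.24, none of them called. At exo5, a mitochondrial exonuclease gene, antisense was at 2.77 and sense was called lower at -0.89, and at ser2, of serine synthesis, antisense was at 2.67 and sense called lower at -0.38. At tum1, SPAC8F11.08c and lto1, antisense was at 2.80, 2.69 and 2.69 and sense was not called, at 0.04, -0.10 and -0.11. At duc1, antisense was at 3.08 (adjusted p = 7.79e-16) and sense was called higher at 0.42. Among annotated antisense RNAs, prl15 was at 3.92 opposite crt10, whose sense RNA was called lower at -0.45. SPNCRNA.676 was at 3.00 opposite alp41, also called lower at -0.45. Most opposed genes were not called. In 237 pairs of a coding gene and an annotated antisense RNA called higher, the gene was lower in 38 and higher in 26, with a median of -0.08. In 243 pairs with an uncalled antisense RNA, the gene was lower in 26 and higher in 31.

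Set against sense RNA in the same libraries, the 436 genes with higher antisense had 82 called lower in sense, 18.8%, and 39 called higher, 8.94%, with a median sense log2 fold of -0.10. Among all 5039 protein-coding entries 12.1% were lower and 11.9% higher, with a median of -0.04. The other 314 had sense RNA that was not called and 1 has no sense entry. The orientation of neighbours was counted as well: 271 of the 436, 62.2%, are followed on their 3' side by a gene transcribed towards them, against 253 of 566 listed loci whose antisense was not called, 44.7%, and 2664 of 5039 protein-coding entries, 52.9%. In 155 of the 271 the annotated transcripts of the facing genes overlap. The same holds for 128 of the 253 uncalled loci and 1498 of the 2664 protein-coding entries, a similar share. The facing genes themselves were called higher in sense in 51 of 270 cases and lower in 27, with a median of 0.02, and at uncalled loci in 43 and 32 of 251. Reads from a facing gene that run past its annotated end would be counted as antisense, and their part in these values was not tested.

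The loci where antisense fell were described after values were seen. Of the 50 genes with lower antisense, 18 are described as ribosomal proteins or translation factors, 36.0%, and 4 as glycolytic enzymes, against 6 and 0 of the 436 genes with higher antisense and 281 and 10 of all 5039 protein-coding entries. The lowest were SPBPB2B2.06c, a predicted phosphatase gene, at -4.86, nhp2, a snoRNP protein gene, at -4.65, rps1001 at -4.56, tef103 at -3.54 and rps601 at -3.50. The sense RNA of nhp2, rps1001 and rps601 was not called, at -0.06, -0.03 and -0.08, while that of SPBPB2B2.06c and tef103 was called lower at -0.94 and -0.64. Of the 50, sense RNA was called lower at 17, 34.0%, and higher at 1, 2%, against 12.1% and 11.9% of all protein-coding entries. Genes facing these loci on the 3' side were called lower in sense in 8 of 23 cases and higher in 1, with a median of -0.25. At loci with uncalled antisense, facing genes were lower in 32 and higher in 43 of 251 cases. A link between these values was not tested.

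**Figure D4:**
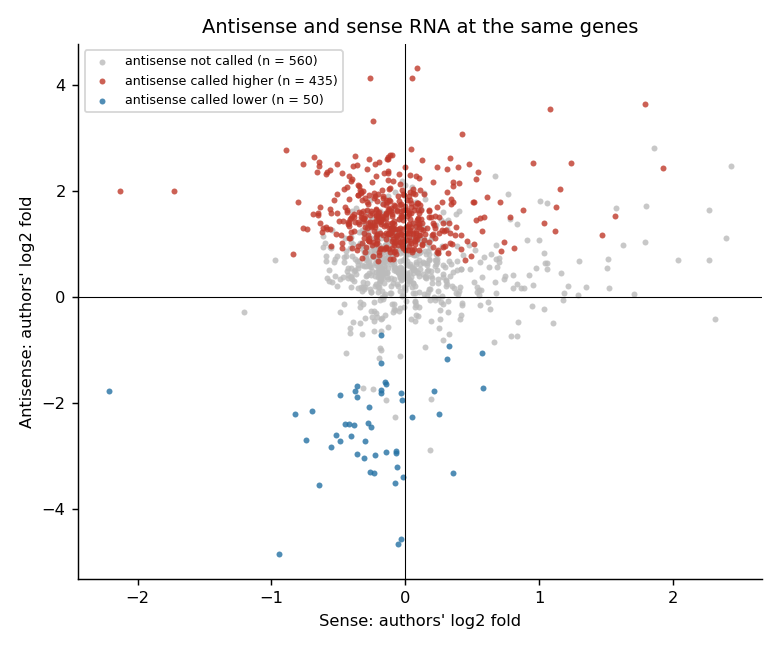
Authors' log2 fold of antisense RNA (y axis) against that of sense RNA (x axis) at the genes that have both, each point a gene, red where antisense was called higher in the pht1 deletion, blue where it was called lower and grey where it was not called. The 50 genes with lower antisense lie between SPBPB2B2.06c at -4.86 and apl1 at -0.72 on the y axis, among others that were not called, and the 435 plotted genes with higher antisense spread along the x axis around a median of -0.10.

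Retrotransposon remnants had folds above 0 almost throughout, a minority of them called. LTRs are the end repeats of Tf1 and Tf2 elements, most of them solitary in this genome. Of 117 LTRs, 105 had a deposited log2 fold above 0, and the median was 0.79. The test called 28 higher, 23.9%, and 0 lower, 0%, with edgeR named in the submitters' notes; at an unadjusted deposited p under 0.05, 1 was lower and 45 were higher. LTRs noted as Tf2 gave 21 higher of 71 with a median of 0.83, those noted as Tf1 gave 4 of 38 with a median of 0.65, and 3 of the 8 with no type noted were higher.

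The 3 highest called were LTR 27 at 2.83, on chromosome II at 93517 to 93860, LTR 3078 at 2.50, on chromosome I at 3190954 to 3191311, and the fragment LTR 1301 at 2.15, on chromosome III at 1466447 to 1466627 between gcn3 and SPNCRNA.1200. The genes on either side of LTR 27 and LTR 3078 were not called, nor were gcn3 at 0.15 and SPNCRNA.1200 at 0.01. For LTR 27, 100% of the 100-base windows occur elsewhere in the genome, so its reads could come from other copies. Its deposited adjusted p of 0.0197 is also above 0.01. LTR 20, near the left end of chromosome I, was at 1.53 beside SPAC977.18, which was called higher at 1.23. Of LTRs not next to a full Tf2 element, 8 of the 18 called higher and 15 of the 74 not called have a flanking gene called higher.

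Near-identical copies limit what a single LTR value means. The 11 LTRs that share the sequence printed above had deposited log2 folds from 0.57 to 1.24, with 6 called higher, and 9 of them stand next to a full-length Tf2 element. Another 7 identical ones ran from 0.57 to 1.27. The sources used here do not say how the authors placed reads that match several copies. LTRs with at least 50% of their 100-base windows found elsewhere gave 19 higher of 49, and the 68 others gave 9 higher with a median of 0.73. All 13 full Tf2 elements of the sense table were called higher, within the narrow span of 0.40 to 0.56, and they too share nearly all their sequence and are not 13 separate observations.

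The intergenic table showed few calls and a median above 0. Of 6121 regions, 101 were called higher, 1.65%, and 12 lower, 0.196%, with a median deposited log2 fold of 0.22. By position, 3316 of the regions are annotated introns, 2180 lie between genes and 625 others overlap an annotated gene. Regions between genes were called higher in 59 cases and lower in 9, with a median of 0.33, introns in 25 and 3, with a median of 0.13, and the others in 17 cases. Between genes, the median was 0.44 for 465 regions flanked by divergent genes, of which 19 were higher, 0.29 for 546 between convergent genes, of which 15 were higher, and 0.32 for 1168 between genes in tandem, of which 25 were higher. The sources used here do not say whether this table counts reads of both strands.

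Regions between genes often moved as a gene beside them did. Of the 59 called higher, 25 have a flanking gene called higher, 42.4%, against 479 of all 2180, 22.0%, and of the 9 called lower, 7 have a flanking gene called lower, against 450 of 2180, 20.6%. The pairs include the genes described above. The region after zym1, on chromosome I at 2382201 to 2382469, was at 2.62, that between yhb1 and SPAC869.01 at 3.45 and that between SPAPJ695.01c and ght3 at 3.74. On the lower side, the region after thi2, on chromosome II at 3941700 to 3941983, was at -1.96, that after the amino acid permease gene SPCC794.03 at -1.78 beside a gene at -1.73, and that after SPBPB2B2.08 at -2.03. The highest called outside the introns were a 207-base region at 6.86 on chromosome I at 311713 to 311919, beside ncs1 at 0.54, and a 1254-base region at 5.20 between the pseudogenes SPBCPT2R1.07C and SPBCPT2R1.10.

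Among the introns printed above, the one of smg1, an Sm protein gene, stood alone at 6.58 (adjusted p = 0.00569) over 47 bases, with the gene's own sense RNA not called at -0.20. The intron of whi5, a predicted cell cycle repressor gene, was at 2.92 with the gene not called at 0.22, and that of SPAC630.06c was at 2.43 with the gene called lower at -0.35. Both introns of SPCC70.04c, at 2.27 and 2.38, belong to a gene called higher at 1.47. Antisense was called higher at SPCC70.04c too, at 1.17, and was not called at SPAC630.06c, at 0.61. duc1, the gene whose antisense was at 3.08, has 2 called introns, of 322 and 99 bases, the longer at 2.47. Of the 25 introns called higher, 9 have a host gene called higher and 2 one called lower. Among 3282 uncalled introns, 201 have a host gene called higher and 372 one called lower. The introns called lower were in cdc7 at -3.09, in hem12 at -3.02 and in rar1 at -1.14, and none of these genes was called in sense. At 42 to 78 bases, the introns printed are shorter than the 100-base reads, so a read counted to one also covers exon or neighbouring sequence.

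**Figure D5:**
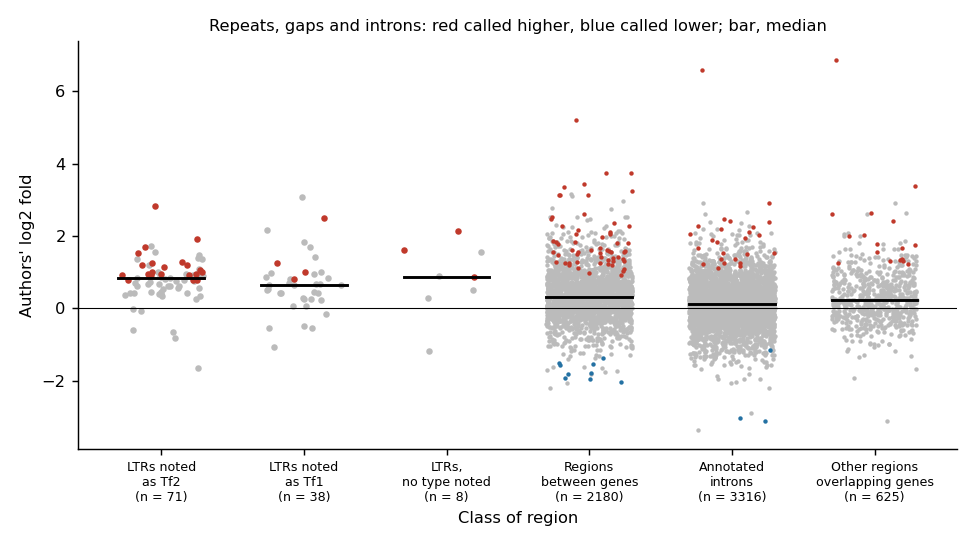
Authors' log2 fold (y axis) of LTRs by noted type and of regions of the intergenic table by class (x axis), each point a feature, red called higher in the pht1 deletion, blue lower and grey neither, with a bar at the median. Medians run from 0.13 for annotated introns to 0.88 for the 8 LTRs with no type noted.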

How the data were processed

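Strand-specific libraries of random-primed cDNA from ribosomal-RNA-depleted RNA were sequenced as 100-base single reads, per the labels' protocols. The submitters' processing notes name BWA 0.5.8c and edgeR without their roles. Counting, normalization, filters and the placing of repeated reads are not given in the sources used here. The authors deposited, per comparison, a log2 fold (base 2 is taken from edgeR's convention) and its p-value, unadjusted and adjusted. Some of the authors' p values exceed 1 (20 sense entries and 1 antisense entry, up to 1.17), so that column was handled as a score. Adjusted p-values equal a Benjamini-Hochberg adjustment over the table for LTRs and intergenic regions, not for the sense and antisense tables. No test of samples was run here.

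Features were joined to RefSeq ASM294v3 (5639 of 5747 sense entries) with Python 3.11.15 and pandas 2.3.3. The named features are pht1 and its neighbours, the 15 highest and 15 lowest called folds per table, list members by smallest adjusted p, and genes beside named loci; others were chosen after their values were seen. The members and gene lists were chosen with earlier results of these data known, and lists described as made after values were seen were added later. Lists can share genes, as with fbp1 and mei4, so their counts are not separate observations. A pattern meant to gather tRNA ligases by symbol also took in 5 other genes (rrs1, ers1, crs1, mrs2 and srs2) and gave 15 lower of 23. Alternatives changed the threshold, the fold, the adjustment and the features kept.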

Additional observations from a re-analysis of the deposited data

How the results depend on the processing

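No paired analysis was possible because the deposited tables hold no value per library, and for the same reason leaving out each replicate could not be run. In every alternative tried the side with more calls stayed the same in each of the 4 tables. At an adjusted p under 0.01 the counts were 494 higher and 331 lower for sense entries, 6 higher for LTRs, and 41 higher and 7 lower for intergenic regions. Asking for at least a 2-fold change left 236 higher and 30 lower sense entries and 16 higher LTRs. Leaving out features that overlap another gene or have a copy left 331 higher and 303 lower of 2594 sense entries, 219 higher and 36 lower of 553 antisense entries, 6 higher of 46 LTRs and 51 higher of 2088 intergenic regions. A Benjamini-Hochberg adjustment recomputed over each table gave 759 and 617 for sense entries, within 1.5 times of the deposited calls. For antisense entries it gave 789 and 68. The antisense rows listed were already selected by p-value, so that recount is too lenient and is no check of the antisense calls.

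For the lists, at 0.01 the higher calls were 6 of 29 for pheromone signalling and 86 of 656 for annotated noncoding RNAs (159 at 0.05). Over all 5747 sense entries 494 were higher and 331 lower at this setting. The lower calls were 10 of 145 ribosomal protein, 7 of 23 tRNA ligase pattern and 6 of 41 translation factor genes. They were 2 of 27 for factors that limit cryptic transcription, 9 of 21 for cytoplasmic ligases, 11 of 52 for amino acid synthesis and 3 of 10 for purine synthesis. Without overlapping or copied members, the higher calls were 10 of 18 stress, 4 of 13 chaperone, 5 of 18 hexose, 5 of 12 pheromone, 2 of 6 Mmi1-targeted and 53 of 275 noncoding RNA entries. The lower calls were 4 of 5 thiamine, 13 of 96 ribosomal protein, 8 of 10 tRNA ligase pattern, 7 of 24 translation factor, 2 of 12 heterochromatin, 2 of 13 cryptic transcription, 9 of 15 sulfur, 9 of 11 cytoplasmic ligase and 10 of 25 amino acid synthesis genes. Among all sense entries kept in this way, 331 of 2594 were higher and 303 lower. Fewer members were counted in these settings. The share of entries called higher near the ends of chromosomes I and II was 33.9% within 50 kb and 33.0% within 150 kb. The 15 highest and 15 lowest called folds per table made up 102 features. Of these, 78 kept their call at 0.01 and 24 lost it, 10 of them intergenic regions and 9 LTRs. Features named for other reasons were not counted here.

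The tables limit what can be said. The spread between libraries cannot be shown, the antisense table is already selected, and without read counts a high fold at a short or rarely read feature, such as an intron, cannot be told from one that rests on few reads. Labelled mating type and pht1 differ together and cannot be told apart.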

Other observations

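Other lists held scattered changes in both directions, as deposited log2 folds. Over all sense entries, 13.5% were called higher and 11.1% lower, and several of these lists lie near those shares. Of 24 iron genes, 2 were called higher, the scaffold gene isu1 at 0.61 and the reductase gene frp2 at 0.84, and 4 lower, among them the glutaredoxin gene grx4 at -0.62 and the ferroxidase gene fio1 at -0.52. Of 27 nitrogen and amino acid transport genes, 5 were higher, with the vacuolar protease gene isp6 at 1.04 and the permease gene isp5 at 0.87, and 7 lower, with the peptide transporter gene ptr2 at -0.60. Of 23 zinc, copper and metal genes, 5 were higher besides 2 lower, with the copper transporter gene mfc1 at 1.79 and the zinc transporter gene zrt1 at 0.47. Of 30 sterol and fatty acid genes, 6 were lower, led by erg31 at -0.69, and 1 higher, erg25 at 0.47. The shares called higher were 8.33% for iron, 18.5% for nitrogen, 21.7% for metal and 3.33% for sterol genes. The shares called lower were 16.7%, 25.9%, 8.70% and 20% in the same order.

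Of 35 kinetochore and centromere genes, 3 were called lower, with mis14 at -0.78 and cnp3, the gene of CENP-C, at -0.35, and mis13 was higher at 0.49. Of 39 genes named spo, isp, rec, mcp or mde, 7 were higher, with the recombination gene rec15 at 1.68, and 4 lower, with rec12, whose product makes meiotic DNA breaks, at -0.86. Of 25 wtf genes, a family of spore killers with many similar copies, 4 were higher and 1 lower. Of 18 flocculin and surface glycoprotein genes, 3 were higher and 2 lower, with pfl3 at -0.65. Of 12 INO80 complex genes 3 were lower, with arp5 at -0.49. Of 51 mitochondrial ribosomal protein genes, 4 were lower and 1 higher. Of 13 drug efflux genes 3 were higher, caf5 at 0.86, mfs1 at 0.34 and mfs2 at 0.96, and 2 lower. Set against 13.5% of all sense entries, the shares called higher were 17.9% for spo to mde, 16% for wtf and 16.7% for flocculin genes. For drug efflux genes it was 23.1%. Set against 11.1%, the shares called lower were 8.57% for kinetochore, 10.3% for spo to mde and 11.1% for flocculin genes. They were 25% for INO80, 7.84% for mitochondrial ribosomal protein and 15.4% for drug efflux genes.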
